A study of Mus musculus with 2 samples.

Results

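Levels of 10 genes that mark the 2-cell-like state were measured in ES-E14, a male mouse embryonic stem cell line of strain 129/Ola. These are Zscan4b, Zscan4c, Zscan4d, Zscan4e, Zscan4f, Tcstv1, Tcstv3, Zfp352, Usp17la and Usp17lc, 10 of the 43346 genes quantified, with 17 of the transcripts, and were chosen by name and matched by Ensembl gene identifier. Total RNA was sequenced in 2 libraries of 1 group, biological replicates 1 and 2, with no treatment or control named in the labels. Both libraries carry 1 source sample in the labels, and nothing says that they came from separate cultures, so their spread may be only technical. The libraries held 43163300 and 45573512 expected counts on genes, of which the 10 genes took 0.0261% and 0.0282%. TPM is a level scaled by transcript length and by the library's total, and pairs of values are given as replicate 1 and replicate 2. The 12 embryonic stem cell markers checked all reached 1 TPM in each library, beside 24.8% of all genes and 46.3% of protein-coding genes. They were led by Dppa5a (613 and 597 TPM), Tdgf1 (318 and 198 TPM) and Pou5f1 (162 and 201 TPM), with Tfcp2l1 the lowest (8.15 and 8.27 TPM). With 1 group, no comparison between conditions could be tested.

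Mouse embryos switch on their own genome at the 2-cell stage, with a burst of transcripts that are later shut off. In embryonic stem cell cultures a small and changing fraction of cells passes through a state that expresses many of these transcripts again, together with the endogenous retrovirus MERVL, which was not analysed here. The transcription factor Dux and the proteins Dppa2 and Dppa4 promote entry into this state, while chromatin repressors such as Trim28 and Kdm1a hold it back. Zscan4 proteins carry a SCAN domain and zinc fingers and are known for telomere lengthening and genome stability in these cells. In a bulk sample, fewer cells in the state and less RNA per cell cannot be told apart, so each level below is an average over the culture.

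The 5 Zscan4 genes lie together on mouse chromosome 7 (GRCm38, the assembly of mm10), from Zscan4b at 10900740 to 10905050 to Zscan4f at 11397915 to 11402318. Their coding sequences differ at 65 of 1518 aligned columns. The 100 coding bases with the most differences, coding bases 625 to 724 of the GENCODE M21 transcripts, are shown because a read within the coding sequence separates these genes only where it crosses such columns. Capitals mark the 11 columns at which the 5 genes are not all alike.
Zscan4b: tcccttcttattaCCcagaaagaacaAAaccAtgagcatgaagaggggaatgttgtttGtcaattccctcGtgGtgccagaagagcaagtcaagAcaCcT
Zscan4c: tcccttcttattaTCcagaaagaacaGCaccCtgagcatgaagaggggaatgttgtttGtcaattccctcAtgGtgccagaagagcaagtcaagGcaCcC
Zscan4d: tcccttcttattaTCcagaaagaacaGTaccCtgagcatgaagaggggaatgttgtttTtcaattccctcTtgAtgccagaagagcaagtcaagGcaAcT
Zscan4e: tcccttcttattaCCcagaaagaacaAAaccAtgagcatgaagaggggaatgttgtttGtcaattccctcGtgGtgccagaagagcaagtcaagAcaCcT
Zscan4f: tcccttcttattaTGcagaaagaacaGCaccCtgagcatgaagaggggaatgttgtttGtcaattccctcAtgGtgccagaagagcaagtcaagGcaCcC
In this window Zscan4b and Zscan4e carry the same letters, and Zscan4c differs from Zscan4f at 1 column. Over the whole coding sequence Zscan4b and Zscan4e were 99.7% identical, with 4 different bases, and Zscan4c and Zscan4f 99.6%, with 6 different bases. The least alike pairs were Zscan4d with Zscan4b, at 96.4%, and Zscan4d with Zscan4e, at 96.6%, while Zscan4d was 97.7% identical with Zscan4c and with Zscan4f.

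Tcstv1 (chromosome 13, 119893388 to 119894785) and Tcstv3 (chromosome 13, 120316878 to 120318178), known as transcripts of the 2-cell stage, were 93.6% identical in coding sequence. Their most different stretch of 100 coding bases, coding bases 354 to 453, is shown with capitals at the 12 columns that separate them.
Tcstv1: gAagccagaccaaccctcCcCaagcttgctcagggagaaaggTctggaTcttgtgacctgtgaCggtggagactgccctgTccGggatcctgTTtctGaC
Tcstv3: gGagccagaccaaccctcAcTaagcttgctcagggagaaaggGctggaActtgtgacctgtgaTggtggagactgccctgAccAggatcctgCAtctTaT
Usp17la (chromosome 7, 104857009 to 104862667) and Usp17lc (chromosome 7, 103415072 to 103419880) were 90.7% identical. They encode ubiquitin-specific proteases also known as Dub1 and Dub2, which remove ubiquitin from other proteins. Zfp352 (chromosome 4, 90218820 to 90225702), a zinc finger gene of the 2-cell stage, has no second copy among the 10 genes.

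RefSeq promoter sequence was matched for 7 of the 10 genes, as 250 bases before to 50 bases after the RefSeq start (GRCm38.p6), each printed on the gene's own strand. The Zscan4 promoters are shown because near-identical sequence continues upstream of the genes: Zscan4b at chr7:10905001-10905300 (minus strand), Zscan4c at chr7:11005495-11005794 (plus strand), Zscan4d at chr7:11166099-11166398 (minus strand) and Zscan4f at chr7:11397665-11397964 (plus strand). Capitals mark TATAAA, the core of the TATA box, searched for on both strands.
Zscan4b: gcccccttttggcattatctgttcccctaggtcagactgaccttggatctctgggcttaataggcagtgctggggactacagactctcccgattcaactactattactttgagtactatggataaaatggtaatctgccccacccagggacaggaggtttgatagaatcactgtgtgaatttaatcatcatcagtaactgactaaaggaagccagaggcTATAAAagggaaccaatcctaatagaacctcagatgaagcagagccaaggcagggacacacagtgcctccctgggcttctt
Zscan4c: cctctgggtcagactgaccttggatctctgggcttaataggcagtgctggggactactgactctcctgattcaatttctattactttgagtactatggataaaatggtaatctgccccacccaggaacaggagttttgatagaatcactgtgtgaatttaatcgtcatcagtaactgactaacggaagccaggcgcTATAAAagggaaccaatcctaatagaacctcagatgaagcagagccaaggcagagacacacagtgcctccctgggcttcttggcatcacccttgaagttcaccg
Zscan4d: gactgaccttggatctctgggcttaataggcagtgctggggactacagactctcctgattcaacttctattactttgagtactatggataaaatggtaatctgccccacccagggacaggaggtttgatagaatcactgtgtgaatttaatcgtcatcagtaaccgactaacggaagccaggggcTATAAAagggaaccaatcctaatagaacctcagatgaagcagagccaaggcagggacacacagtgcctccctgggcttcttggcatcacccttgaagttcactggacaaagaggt
Zscan4f: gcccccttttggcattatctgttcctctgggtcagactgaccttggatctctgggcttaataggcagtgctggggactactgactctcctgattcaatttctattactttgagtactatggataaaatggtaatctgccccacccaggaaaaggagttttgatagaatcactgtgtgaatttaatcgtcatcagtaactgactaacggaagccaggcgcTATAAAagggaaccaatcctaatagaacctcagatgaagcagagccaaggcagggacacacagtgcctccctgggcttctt
The promoters of Zscan4c and Zscan4f were 99.3% identical over 277 aligned columns, the closest pair of the 4, and those of Zscan4b and Zscan4c the least alike at 95.3%. All 4 held TATAAA, starting 31 bases before the annotated start in Zscan4b and Zscan4f, 54 in Zscan4c and 65 in Zscan4d, and Usp17lc held it 88 bases before its start. The promoters of Usp17la and Zfp352 held no exact match. Of all 32851 promoters in the table, 13.6% held TATAAA on either strand. A match is a description of the letters only.

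In the authors' tables the 5 Zscan4 genes were the highest of the 10 by TPM. Zscan4f, the highest, stood at 41.8 and 53.1 TPM, or 47.4 ± 8.03 TPM (SD, n = 2), on 5264 and 5971 expected counts. It ranked 685th and 654th among 21474 protein-coding genes. Zscan4c, known as the main Zscan4 gene of embryonic stem cells, stood at 16.4 and 20.3 TPM, or 18.4 ± 2.74 TPM (SD, n = 2). Zscan4d, known as the main one of the 2-cell embryo, stood at 11.1 and 13.8 TPM, or 12.4 ± 1.89 TPM (SD, n = 2). As assigned to the reference transcripts, Zscan4f was thus above Zscan4c and Zscan4c above Zscan4d in each library. The values of neighbouring genes did not overlap. In the reference, Zscan4c and Zscan4f differ at 6 of 1518 coding bases. Whether the cell line used here carries the same bases and the same gene copies was not tested.

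Zscan4e stood at 8.73 and 9.45 TPM, or 9.09 ± 0.509 TPM (SD, n = 2), and Zscan4b at 3.60 and 4.78 TPM, or 4.19 ± 0.834 TPM (SD, n = 2). Reads shared between these genes were divided by the authors' quantifier, a division within the 5 that drops out of their summed count. The 5 genes together held 10884 expected counts in replicate 1 (95% exact Poisson interval 10680.5 to 11090.4) and 12506 in replicate 2 (12287.8 to 12727.1), an interval that covers counting error only. In TPM the sum was 81.6 and 101.4, or 91.5 ± 14 TPM (SD, n = 2). That was 50.3% and 50.5% of the level of Pou5f1, the gene of the pluripotency factor OCT4.

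The division of the Zscan4 sum among its members was close to the same in both libraries. Zscan4f took 51.2% and 52.4% of the summed TPM, Zscan4c 20.1% and 20.02%, and Zscan4d 13.6% and 13.6%. Zscan4e took 10.7% and 9.32%, and Zscan4b 4.41% and 4.71%. Between the libraries the widest gap was that of Zscan4e, and the order of the 5 was the same in both.

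The other 5 genes were lower in the authors' tables, with Tcstv3 next to Zscan4b. Tcstv3 stood at 2.82 and 1.93 TPM, or 2.38 ± 0.629 TPM (SD, n = 2), on 77.6 and 50 expected counts. Tcstv1 stood at 0.26 and 0.21 TPM, on 19.5 and 15 counts (95% exact Poisson intervals 11.4 to 29.7 and 8.40 to 24.7). Tcstv3 was therefore the greater part of the Tcstv sum, which was 3.08 and 2.14 TPM, or 97.1 and 65.0 counts (intervals 78.7 to 118 and 50.2 to 82.8).

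Usp17lc stood at 1.24 and 0.88 TPM on 171 and 124 counts, and Usp17la at 0.29 and 0.73 TPM on 55.7 and 135 counts. Usp17lc was above Usp17la in each library, by more in replicate 1 than in replicate 2. Their sum was 1.53 and 1.61 TPM, or 1.57 ± 0.0566 TPM (SD, n = 2). Zfp352 stood at 0.35 and 0.30 TPM on 56.0 and 44.0 counts (95% exact Poisson intervals 42.3 to 72.7 and 32.0 to 59.1), and was detected in both libraries at a low level. By mean TPM the order ran from Zscan4f through Zscan4c, Zscan4d, Zscan4e, Zscan4b, Tcstv3, Usp17lc, Usp17la and Zfp352 to Tcstv1. Usp17la and Zfp352 overlapped between libraries, and no other neighbours in this order did. By the authors' intervals, whose level is not stated, Zscan4b and Tcstv3, Usp17lc and Usp17la, and Zfp352 and Tcstv1 also overlapped in at least 1 library. Between the libraries these intervals overlapped for Zscan4e, Tcstv1, Tcstv3, Zfp352 and Usp17lc and not for the other 5 genes. They did not overlap for 33.7% of all 25274 genes with a count, and for 62.6% of those at 1 TPM or more in each library.

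**Figure D1:**
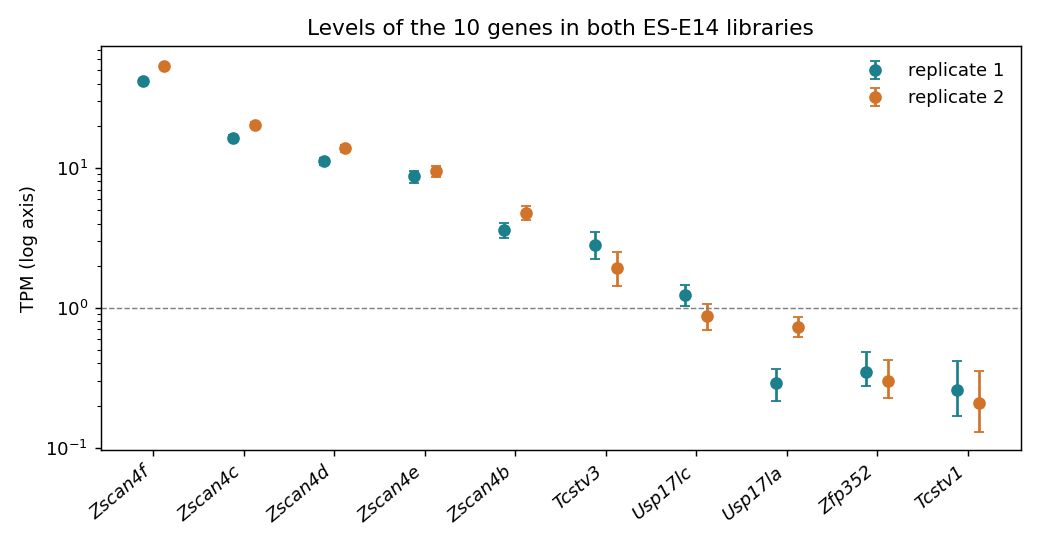
TPM on a log axis for each of the 10 genes in replicate 1 and replicate 2; bars are the authors' intervals and the dashed line marks 1 TPM. The 5 Zscan4 genes and Tcstv3 lie above the line in both libraries, and Usp17la, Zfp352 and Tcstv1 lie below it in both.

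Of the 10 genes, 6 were at 1 TPM or more in both libraries, the 5 Zscan4 genes and Tcstv3. Over all genes the share was 24.8%, and over protein-coding genes 46.3%. A limit of 0.5 TPM passed 7 of the 10 and 28.8% of all genes, and a limit of 5 TPM passed 4 and 13%. At 1, posterior mean TPM passed 6 (26.3% of all genes), FPKM, which is also scaled by length and depth, 7 (28%) and the mean TPM of the libraries 7 (26.4%), while replicate 2 alone passed 6 (26.7%) and replicate 1 alone 7 (25.7%). The median of the 10 was 3.21 and 3.36 TPM, against 0.76 and 0.94 TPM for protein-coding genes. Protein-coding genes other than mitochondrial ones held 18.7% and 22.9% of all TPM in these total RNA libraries. With TPM rescaled to those genes, 9 of the 10 passed in both libraries, with a background of 59.2%, and Tcstv1 was the exception at 1.39 and 0.917.

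The authors' quantifier also gave a posterior standard deviation for each count, a measure of how uncertain the assignment of shared reads was. Among the 10739 genes that reached 1 TPM in each library, 16.8% had, in either library, a value above 0. All 5 Zscan4 genes did: it was 4.54% and 3.81% of the count for Zscan4b, 3.81% and 3.45% for Zscan4e, 1.96% and 1.69% for Zscan4c, 1.201% and 0.966% for Zscan4d and 0.961% and 0.863% for Zscan4f. Zfp352 had 0 in both libraries, and Usp17lc had 2.72% and 4.15%. Tcstv1 had 2.57% and 0%, Tcstv3 1.25% and 0.08%, and Usp17la 1.44% and 0.71%. These values cover the assignment of reads to the reference transcripts only. They do not cover the spread between libraries or any difference between the cell line and the reference.

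With families set by gene name, shared sequence lay mostly within the family for the Zscan4 and Usp17l genes and mostly outside it for the others. The Tcstv family also took in AF067061, AF067063 and BC061212. BC061212 lies on chromosome 5 and the others on chromosome 13, and whether it belongs to the family was not tested. Genes with Gm names counted as outside every family, so words shared with related genes under such names count as outside. For each gene, every 50-base word of its M21 transcripts was looked up in the transcripts of all other genes, on the same strand. Of the words of Zscan4b 9.88% were in no other gene, of Zscan4e 11.0%, of Zscan4f 13.2% and of Zscan4c 14.5%, while Zscan4d had 50.4%. Most of the rest lay in other Zscan4 genes only, 80.1% for Zscan4f and 79.4% for Zscan4c. The share in no other gene was 92.9% for Zfp352, 85.0% for Tcstv1, 80.7% for Usp17la, 68.6% for Tcstv3 and 55.3% for Usp17lc. Words found outside the family made up 12.7% for Tcstv1 and 24.1% for Tcstv3, against 2.22% and 7.26% in the family only, and 7.09% for Zfp352. In the Usp17l family only lay 11.9% for Usp17la and 40.02% for Usp17lc, against 7.36% and 4.72% outside it. Zscan4b and Zscan4e had the lowest shares of their own words at 36 and 50 bases. Among the Zscan4 genes they also had the largest posterior standard deviations in proportion to their counts, in both libraries, and the fewest counts. With 100-base words the lowest shares were those of Zscan4e (18.5%) and Zscan4f (19.4%), and Zscan4f had the smallest deviation in proportion to its count. In counts the deviations of Zscan4c (53.7 and 54.4) and Zscan4f (50.6 and 51.6) were the largest of the 5. The word shares are of M21 genes and the standard deviations of the authors' genes. In the authors' grouping Zscan4d and Zscan4f each hold a transcript that M21 lists under another gene. This lookup took no account of read pairs, which reach over longer stretches.

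**Figure D2:**
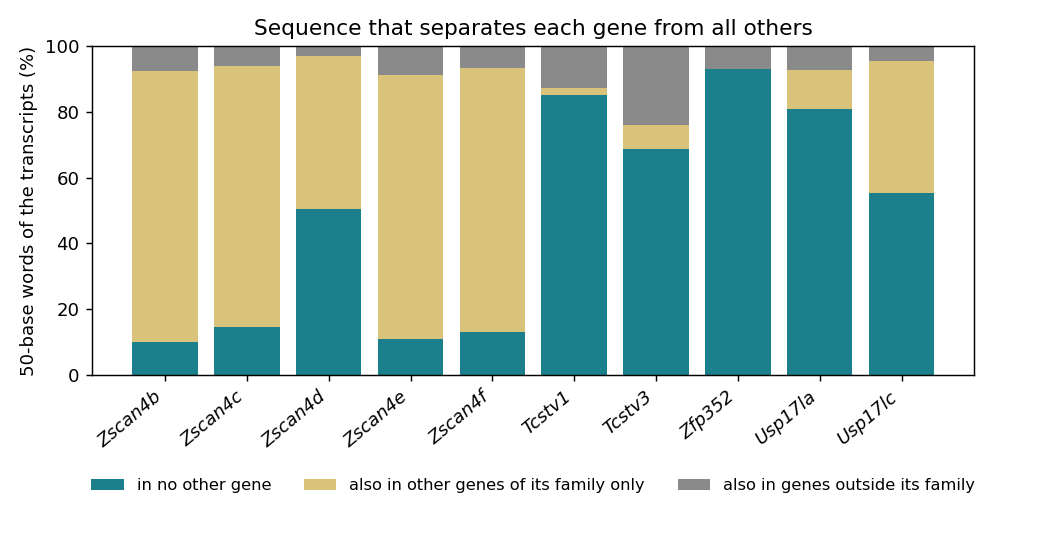
Percent of 50-base words of each gene's M21 transcripts that occur in no other gene, in other genes of its family only, or in genes outside its family. Families are set by gene name, as in the text. In 4 of the 5 Zscan4 genes under 15% of the words are in no other gene, and in Zscan4d 50.4% are.

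The assignment of transcripts to Zscan4 genes differed between annotations. The authors quantified against GENCODE M4, and 17 transcripts belonged to the 10 genes. M21 lists 16 of these identifiers, 2 of them under another gene and 4 with another length. Among the 4, Zscan4e-201 was quantified at 1518 bases and has 1722 in M21, and Zscan4c-201 at 2299 and has 2276. Levels were not recomputed on the M21 sequences. Under Zscan4d, the authors' table holds a transcript of 1829 bases that M21 lists, at 2015 bases, as Zscan4-ps1-201, of the gene Zscan4-ps1. It took 81.3% and 77.7% of the output of Zscan4d, at 9.03 and 10.7 TPM. Zscan4d-201, the transcript that M21 keeps under Zscan4d, stood at 2.08 and 3.08 TPM on 340 and 479 counts. The authors' Zscan4d value thus rests mostly on the transcript with the Zscan4-ps1 identifier. Its M4 model was not used here, and whether that model lay at Zscan4d or at Zscan4-ps1 was not determined, so the M21 values regroup identifiers and do not place reads at a locus.

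Under Zscan4f, the authors' table likewise holds a transcript of 2277 bases that M21 lists as Zscan4-ps2-201. It took 13.6% and 16.0% of the output of Zscan4f, at 5.69 and 8.5 TPM. The coding sequences of Zscan4f and Zscan4-ps2 were 99.7% identical, while Zscan4d and Zscan4-ps1 were 97.8% identical. Grouped by M21, Zscan4f stood at 36.1 and 44.6 TPM and remained the highest. Zscan4d, above Zscan4e and Zscan4b in the authors' grouping, was then the lowest of the 5, with Zscan4b at 3.60 and 4.78 TPM above it in each library. In replicate 1 it was also below Tcstv3 (2.08 against 2.82 TPM), though above it in replicate 2 (3.08 against 1.93 TPM), so the 5 Zscan4 genes were then not the highest of the 10 in each library. The sum over the 5 genes was then 66.9 and 82.2 TPM. Zscan4a and Zscan4-ps3 levels were not analysed here. The M21 grouping was chosen after seeing the data.

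**Figure D3:**
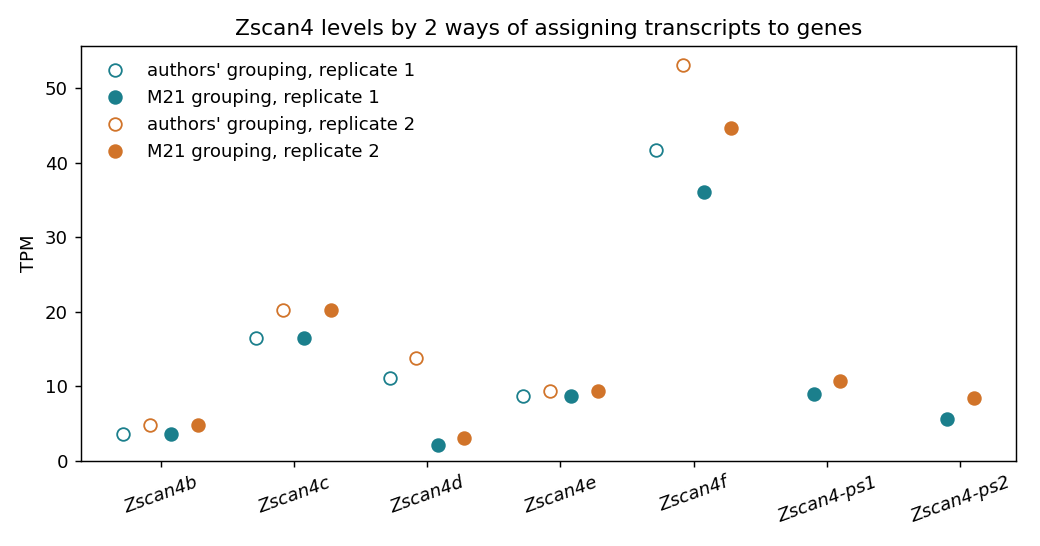
TPM of the Zscan4 genes with transcripts grouped as in the authors' tables (open circles) and as M21 lists them (filled circles), for replicate 1 and replicate 2. Zscan4d stands at 11.1 and 13.8 TPM in the authors' grouping and at 2.08 and 3.08 TPM by M21. Zscan4b, Zscan4c and Zscan4e are the same in both by construction, since identifiers were regrouped and reads were not assigned again.

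Within Zscan4f the main transcript was Zscan4f-202, with 4 exons, at 32.5 and 35.6 TPM, which was 77.9% and 66.9% of the gene's output. The short transcript Zscan4f-201 of 521 bases took 8.49% and 17.1%, on 101 and 243 counts. Between the libraries the share of Zscan4f-201 differed more than that of Zscan4-ps2-201. Zfp352 was mostly the spliced transcript Zfp352-202, with 2 exons, at 91.1% and 73.6%. Its single-exon transcript held only 3.64 and 8.91 counts, with a posterior standard deviation of 6.09 and 5.75 counts. In Usp17lc the leading transcript was not the same in both libraries, with Usp17lc-201 at 66.1% and 47.3% and Usp17lc-202 at 34.0% and 52.7%. Tcstv1 was split between Tcstv1-201 at 59.8% and 63.7% and Tcstv1-202 for the rest, on 19.5 and 15 counts in all.

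The libraries were set against each other as replicate 1 over replicate 2, on the log2(TPM + 1) scale, which understates differences of low genes. None of the 10 genes was 2-fold apart, and 1.97% of all 25274 genes with a count were, 0.435% higher and 1.54% lower in replicate 1. The ratios ran from -0.42 for Usp17la to 0.38 for Tcstv3, with a median of -0.20, against -0.23 for protein-coding genes that reached 1 TPM in each. All 5 Zscan4 genes were higher in replicate 2, by a log2 ratio of -0.10 for Zscan4e and -0.29 to -0.34 for the other 4. This direction did not hold for the sum on every scale. Its ratio was -0.31 in TPM, -0.02 once TPM was rescaled to protein-coding genes, 0.03 with counts scaled by TMM, edgeR's trimmed mean of ratios, and 0.02 with DESeq2-scaled counts. Zscan4e was higher in replicate 1 with TMM (0.19) and rescaled TPM (0.18), and Zscan4f with TMM (0.05). The median of protein-coding genes at 1 TPM or more was 0.02 after rescaling and -0.01 with TMM, against -0.23 in TPM.

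Tcstv1, Tcstv3, Zfp352 and Usp17lc were higher in replicate 1 under each of the 3 scalings plotted, with Tcstv3 at 0.38 in TPM, 0.77 rescaled and 0.85 with TMM. Usp17la went the other way under all 3, at -0.42, -0.71 and -1.04. With TMM-scaled counts it was past 2-fold, as were 22.6% of all genes on that scale, and likewise with DESeq2 scaling (22.6%) and with a pseudocount of 0.1 (9.43%). None of the 10 was apart with posterior mean TPM (1.73% of all genes), rescaled TPM (4.45%), genes of 10 or more counts in a library (2.52%) or a limit of 1.5-fold (11.1%). The central 95% of protein-coding genes at 1 TPM or more lay between -0.96 and 0.63 in TPM, and all 10 ratios were inside it. With TMM it lay between -0.84 and 1.04 and with DESeq2 scaling between -0.85 and 1.03, and Usp17la was outside both, at -1.04 on each. Usp17la was itself under 1 TPM in both libraries, so it is not of that set. Over all genes with a count the central 95% lay between -1.98 and 1.66 on both scales, and Usp17la was inside it. Of 10 feeder fibroblast markers, 5 were at 1 TPM or more in both libraries, beside 24.8% of all genes and 46.3% of protein-coding genes. The summed level of the 10 markers was 49.04 and 158 TPM. Acta2, a smooth muscle actin, stood at 33.04 and 100.2 TPM, and the collagen genes Col1a1 at 7.21 and 28.8 TPM and Col1a2 at 3.58 and 12.1 TPM. These 3 and Col3a1 (1.21 and 10.5 TPM) were more than 2-fold lower in replicate 1, beside 1.54% of all genes with a count. Thy1, a surface protein also made by other cell types, was higher in replicate 1 (2.27 and 1.62 TPM). Lum, a defining marker, had 0 counts in both, and Dcn (0.06 and 0.19 TPM), Postn (0.21 and 0.64 TPM), Pdgfrb (0.95 and 2.15 TPM) and Twist1 (0.51 and 1.59 TPM) were under 1 TPM in at least 1 library. Their part in these ratios was not tested.

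**Figure D4:**
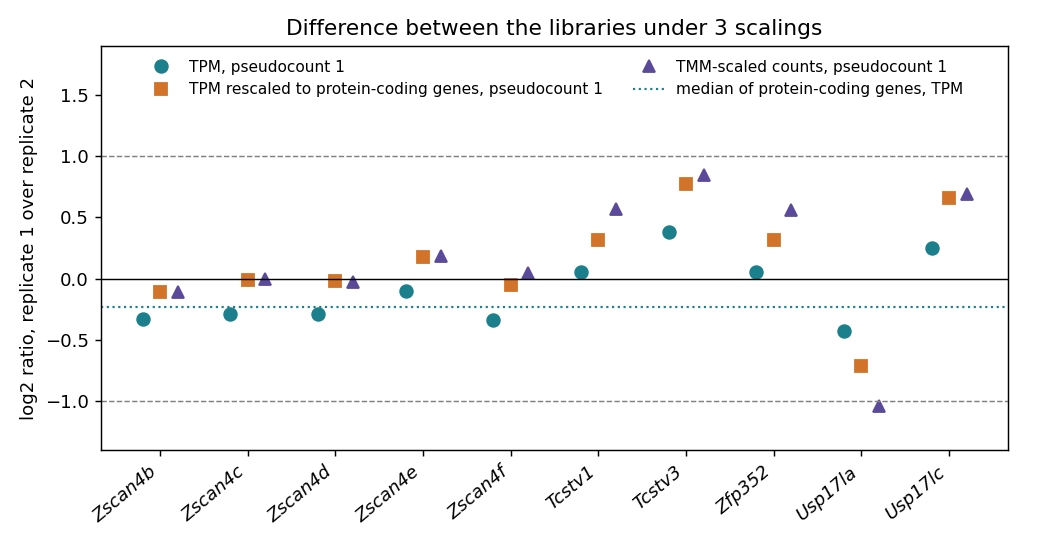
Log2 ratio of replicate 1 over replicate 2 for each gene, from TPM, from TPM rescaled to protein-coding genes, and from TMM-scaled counts, each with a pseudocount of 1. Dashed lines mark 2-fold and the dotted line the median of protein-coding genes that reached 1 TPM in each library, -0.23; the Zscan4 genes lie near that median in TPM and near 0 on the other scales, and Usp17la lies lowest on all 3.

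Genes that act on the 2-cell-like state were present at different levels. Of 10 genes matched from a list of activators, 6 were at 1 TPM or more in both libraries. The share was 24.8% over all genes and 46.3% over protein-coding genes. The 6 include Pias4 (10.3 and 9.41 TPM), which was listed as an activator in error, so 6 is not a count of activators alone. Dppa4, a chromatin protein that works with Dppa2, stood at 32.8 and 32.7 TPM, Smarca5, a chromatin remodeller, at 13.8 and 26.1 TPM and Dppa2 at 8.59 and 17.0 TPM. Duxf3, the gene of the transcription factor Dux, was low at 0.57 and 0.56 TPM, or 82.7 and 76.8 counts, and lies in an array of near-identical copies. Gata2 stood at 0.15 and 0.77 TPM. Obox1 and Obox5, homeobox genes of the early embryo, had 0 counts in both libraries, which allows up to 3 counts each. Duxf3 was thus lower than each Zscan4 gene in both libraries.

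All 30 repressors were at 1 TPM or more in both libraries, beside 24.8% of all genes and 46.3% of protein-coding genes. Trim28, a corepressor that silences retroviral elements, led at 490 and 579 TPM. Ncl, the nucleolar protein nucleolin, stood at 97.1 and 132 TPM and Sumo2, a protein modifier needed for silencing, at 62.9 and 133 TPM. By mean TPM Ring1, a Polycomb ubiquitin ligase, was the lowest at 1.71 and 1.31 TPM, next to E2f6, a repressor of the E2F family, at 1.02 and 2.02 TPM. E2f6 was the lower of the pair in replicate 1. Sumo2 was the 1 repressor of 30 past 2-fold between the libraries, lower in replicate 1, beside 1.97% of all genes with a count. It was among the highest 3 of the list. The median over the repressors was 13.7 and 16.2 TPM.

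Of 38 other transcripts of the 2-cell stage with a match, 12 were at 1 TPM or more in both libraries. The share was 24.8% over all genes and 46.3% over protein-coding genes. The median of the 38 was 0.505 and 0.585 TPM. Gm4340 led at 57.0 and 46.4 TPM, Gm21761 followed at 41.6 and 34.8 TPM and Gm5662 at 8.85 and 13.0 TPM. Gm4340 and Gm21761 were thus above Zscan4c in both libraries, and the posterior standard deviation for Gm4340 was 166 and 196 counts of 3966 and 2952. AA792892 and Gm21762 had 0 counts in both, and Cphx3 was the 1 transcript of 38 past 2-fold between the libraries, lower in replicate 1. The share past 2-fold was 1.97% over all genes with a count. The posterior standard deviation for Cphx3 was 28.8 and 40.3 counts of 95.9 and 309. Cphx2 went the other way, at 36.1 and 4.88 counts, and Cphx1 the same way, at 3 and 7.88 counts. Of 17 oocyte and maternal transcripts, 4 were at 1 TPM or more in both, beside the same 24.8% and 46.3%. They were led by Ooep (6.77 and 7.22 TPM) and Khdc3 (9.31 and 4.67 TPM), both of the subcortical maternal complex, and Tle6 (3.35 and 4.71 TPM). The fourth was Zp3, a gene of the egg coat, at 3.1 and 2.94 TPM on 281 and 253 counts. The other 13, Gdf9 (0.04 and 0.11 TPM), Bmp15 (0.03 and 0.07 TPM) and H1foo (0 counts in both) among them, lay between 0 and 0.27 TPM in each library.

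**Figure D5:**
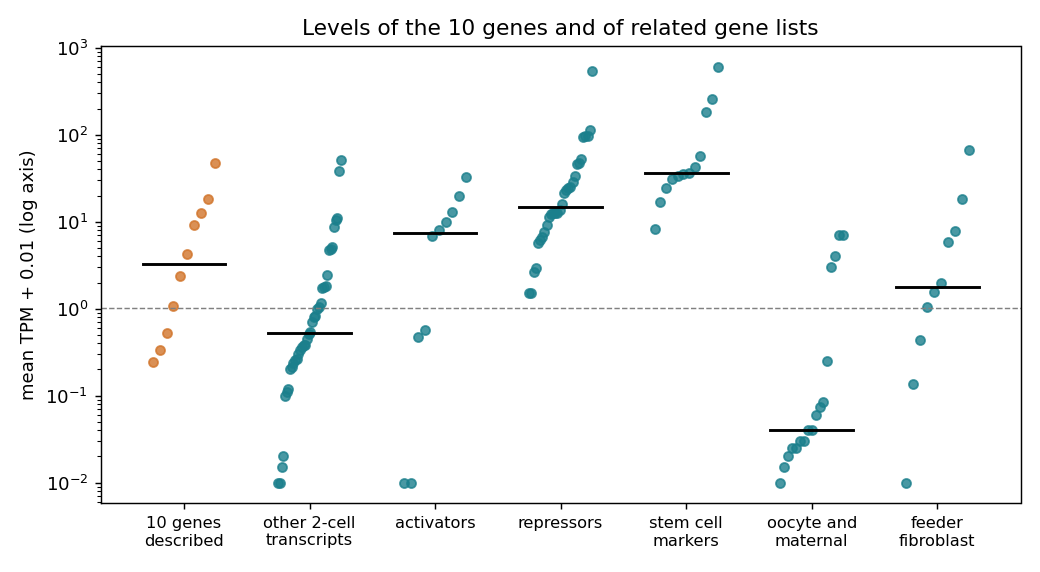
Mean TPM over both libraries plus 0.01, on a log axis, for the 10 genes and 6 related gene lists; each point is a gene, black lines are medians and the dashed line marks 1 TPM. The median of the 10 genes, 3.28 TPM, lies above that of the other 2-cell transcripts, 0.515 TPM, and below that of the repressors, 14.8 TPM. The activators column also holds Pias4, listed there in error.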

How the data were processed

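Per the labels, total RNA of ES-E14 cells was sequenced in 2 libraries with a size range of 300 to 350 (no unit is given). Per the deposited text files, the assembly was mm10 and the annotation GENCODE M4, and each library was quantified alone, from alignments to the transcriptome. The programs used are not stated there. Per the file headers, the authors' tables give for each gene and transcript an expected count, which can be fractional, TPM, FPKM, posterior means and standard deviations, and each transcript's percent of its gene. Interval bounds, a signal on the TPM scale, were used as deposited by the authors; their level is not stated.

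Symbols and coordinates came from GENCODE M21 (GRCm38), matched by identifier without version; 884 of 43346 genes had no match. The 26248 rows named by a number and 97 other rows that name no gene were left out. They held 1 and 15 expected counts. No per-sample column of another sample was present.

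The genes and all lists were chosen with earlier results of these data known. Of each list the 3 highest genes and the lowest by mean TPM are named, and those under 1 TPM in lists of up to 12 genes. Gdf9, Bmp15, Zp3, Col3a1, Thy1, Cphx3 and E2f6 were chosen after their values were seen. Pias4 is named because its listing as an activator was an error. No gene was ranked by likeness of pattern, since 2 libraries give none to compare. Dux, Gm2022, Zscan4a and the Zscan4-ps genes had no match as genes. Scaling used edgeR 4.0.16 (TMM) and DESeq2 1.42.0 in R 4.3.3 on expected counts rounded to whole numbers; other steps used Python 3.11.15, scipy 1.17.1, Biopython 1.88 and MAFFT 7.526. The scaling and the word lookup were tested on simulated data. Intervals cover counting error only.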

Additional observations from a re-analysis of the deposited data

Results flagged for a closer look

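Rows named by a number and the other rows that name no gene, used in no comparison, together had a signal. They held 15 expected counts in replicate 2, where no counts would leave up to 3, and 1 in replicate 1. Groups of 2 libraries are too small for a search for samples that stand apart.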

How the results depend on the processing

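The number of the 10 genes at 1 TPM or more was 6 to 7 when each library was left out, 7 with a limit of 0.5, 4 with a limit of 5, 6 with posterior mean TPM, 7 with FPKM, 7 for the mean of the libraries and 9 with rescaled TPM. Rescaling to protein-coding genes put the Zscan4 sum at 440 in place of 91.5, the Tcstv sum at 12.9 in place of 2.61, the Usp17l sum at 7.62 in place of 1.57 and Zfp352 at 1.59 in place of 0.325, by construction, since it divides by a smaller total. Leaving out a library gave 81.6 to 101.4 TPM for the Zscan4 sum, 2.14 to 3.08 for Tcstv, 1.53 to 1.61 for Usp17l and 0.30 to 0.35 for Zfp352. Adding AF067061, AF067063 and BC061212 raised the Tcstv sum to 4.55 TPM. Of this, BC061212 gave 0.695 TPM, and it lies on chromosome 5 while the others lie on chromosome 13. Whether BC061212 belongs to the Tcstv family was not tested. Genes with Gm names were not counted in that family, among them Gm20767 and Gm21761 on chromosome 13 (mean 10.4 and 38.2 TPM). Adding the other genes with a Usp17l name raised the Usp17l sum to 5.38 TPM, and no other gene with a Zscan4 name was matched. Grouped by M21, which was chosen after seeing the data, the Zscan4 sum was 74.6 TPM and the share of Zscan4f 54.1%, against 51.8% as reported, 48.1% from expected counts, which are not corrected for length, and 51.2% to 52.4% by library. The number of genes 2-fold apart was 1 (Usp17la) with a pseudocount of 0.1, 1 with TMM and 1 with DESeq2 scaling, and 0 under the other 4 alternatives. The median share of the leading transcript over 5 genes was 72.4%, or 66.9% to 77.9% by library. The share of words in no other gene, pooled over the 10 genes, was 47.8% for 50 bases, 39.9% for 36 and 60.3% for 100, by construction, since longer words are more often distinct. No paired analysis was possible because there is 1 group. Depth limits Tcstv1 most, at 19.5 and 15 counts.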
